A study of Mus musculus with 18 samples.

Results

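The 31 genes described here are endothelial genes, taken as a list of known markers and looked up by symbol in a table of 24062 genes. All 31 were found. They comprise 4 lymphatic genes (Lyve1, Prox1, Flt4 and Mmrn1) and 27 other genes of vessel-lining cells, called blood vessel genes here. Some of the 27, such as Pecam1 and Cdh5, mark endothelium in general and not that of blood vessels alone. RNA-seq read counts came from 18 epithelial tumours of the intestine, taken at autopsy from male C57BL/6 mice. Every mouse, controls included, carried ApcMin/+, a truncating mutation of the Wnt pathway inhibitor Apc that gives rise to many intestinal adenomas. The mice differed at Macrod2, which encodes an enzyme that removes ADP-ribose from proteins: 6 were Macrod2+/+ (wild type), 6 Macrod2-/+ (heterozygous) and 6 Macrod2-/- (homozygous). Heterozygous tumour 4 is labelled as small-intestinal and the other 17 as large-intestinal, so that tumour entered no main comparison. It was added to the heterozygous group only in an alternative fit. The labels give no age of the mice and do not say how the Macrod2 allele was made.

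Vascular endothelial growth factors act on endothelial cells through the receptor tyrosine kinases Flt1 and Kdr on blood vessels and Flt4 on lymphatic vessels, and angiopoietins act through Tek with its partner Tie1. Lymphatic endothelium is set apart from blood endothelium by the transcription factor Prox1, which is needed to make and keep the lymphatic fate, and by surface and secreted products such as the hyaluronan receptor Lyve1 and the multimerin Mmrn1. In the gut wall the lymphatic vessels drain fluid, and in the villi they take up dietary fat. Prox1 is not restricted to endothelium: enteroendocrine cells and intestinal tumour cells can also make it.

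Libraries held 13529204 to 20857918 counts. In wild-type tumour 3 the ribosomal transcript Rn45s took 27.0% of the counts, against at most 0.725% in the others. The number of the tumours, and for the lowest genes the depth, limits the precision. Levels are given as CPM, read counts scaled to library size with TMM factors, and genes are compared with each other only by the authors' RPKM, which also divides by gene length. Macrod2 itself was counted 32 to 75 times per wild-type library and 0 to 8 times per homozygous library. Its log2 fold change was -4.49 ± 0.43 (SE) in homozygous against wild-type tumours (edgeR quasi-likelihood test, adjusted p = 1.17e-04). Epithelial markers summed to 10831 to 20785 CPM in the 17 large-intestinal tumours, and the 27 blood vessel genes to 197 to 524 CPM. Of these 27, Sox17 alone had 24.8 to 221 CPM. In whole tumour tissue, fewer cells of a type and less RNA per cell cannot be told apart.

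By RPKM, Prox1 was the most abundant of the 31 genes, and the other 3 lymphatic genes were among the middle and lowest ranks. The median RPKM over 17 tumours was 32.2 for Prox1, 1.84 for Lyve1, 0.375 for Mmrn1 and 0.273 for Flt4. Flt4, the receptor for VEGF-C and VEGF-D, was thus the lowest of all 31 and rested on 4 to 119 counts per library. Among blood vessel genes the arterial transcription factor Sox17 led with 23.4 RPKM. The adhesion protein of endothelial junctions Cdh5 (VE-cadherin) followed with 11.5, and the fenestral diaphragm protein Plvap with 7.35. Sox17 did not rise with Pecam1 across the 17 tumours (Pearson's r of log2 CPM -0.18). The part of cells other than endothelium in the Sox17 level was not tested. Pecam1, a general endothelial adhesion molecule, had 3.05 RPKM, and Nos3, the endothelial nitric oxide synthase, was lowest of the blood vessel genes with 0.331. The ranges over tumours overlapped in all 30 pairs of neighbouring genes in this order, so no step between neighbours exceeded the spread. Cdh5 and Pecam1 are both used to mark endothelium in general, yet their ratio changed from tumour to tumour: wild-type tumour 1 had 106 CPM of Cdh5 with 10.6 of Pecam1, and wild-type tumour 6 had 9.35 CPM of Cdh5 with 11.6 of Pecam1.

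**Figure D1:**
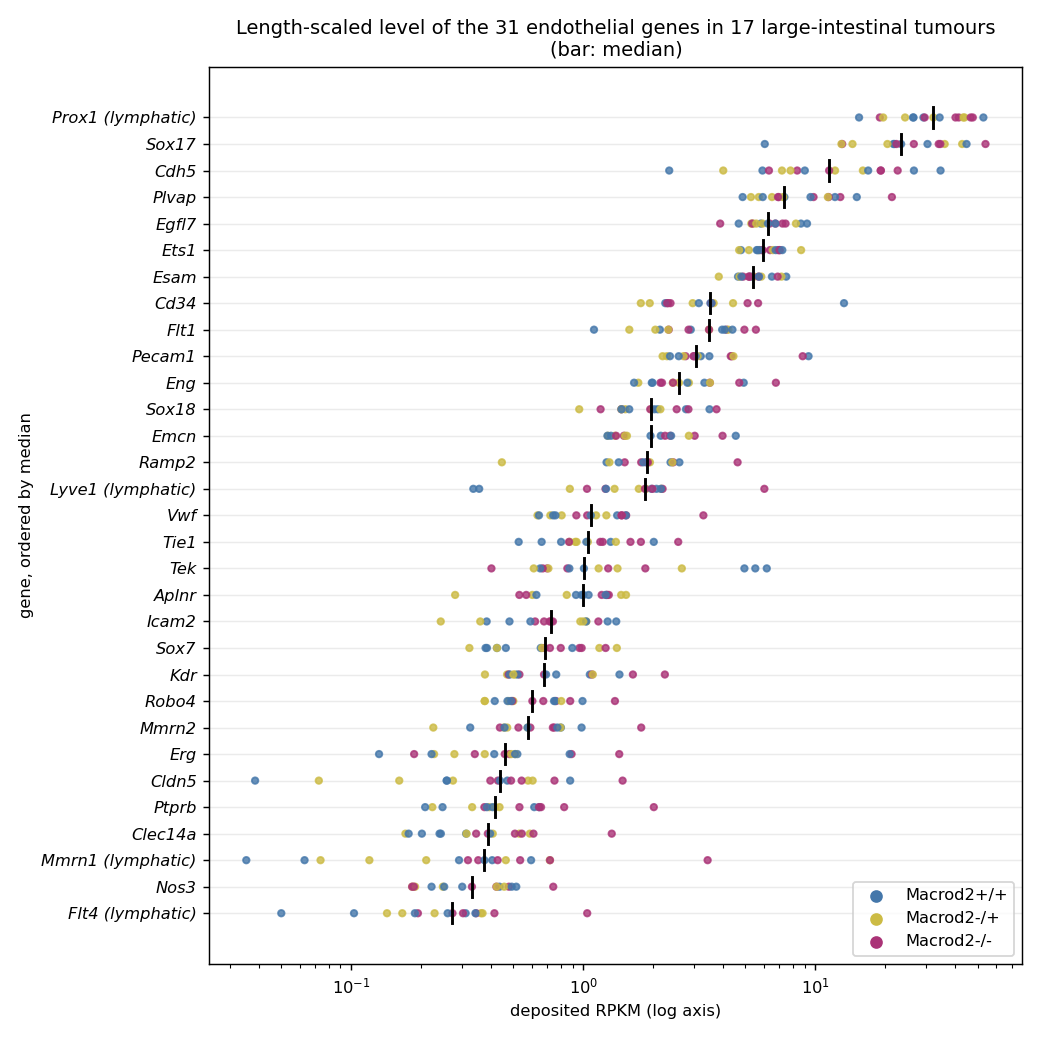
Deposited RPKM (log axis) of the 31 endothelial genes in the 17 large-intestinal tumours, ordered by the median (bar), with each point a tumour coloured by Macrod2 genotype. Prox1 stands at the top with a median of 32.2, and Flt4 at the bottom with 0.273.

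The 3 less abundant lymphatic genes differed between tumours by more than most blood vessel genes did. The highest of the 17 values was 97.2 times the lowest for Mmrn1, 20.8 times for Flt4 and 17.9 times for Lyve1, against 3.43 times for Prox1 and 4.25 times for Pecam1. All 3 were highest in homozygous tumour 6, and lowest in wild-type tumours 4 or 5. Among blood vessel genes, Cldn5, a claudin of endothelial tight junctions, had a highest-to-lowest ratio of 38.3, from 1 to 41 counts. Cdh5 had a ratio of 14.8 and Tek, the angiopoietin receptor, 15.4.

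Lyve1 measured 0.876 CPM in the lowest wild-type tumour, 4.20 in the median and 5.64 in the highest. The 5 heterozygous tumours had 5.65, 4.87, 3.56, 4.52 and 2.28 CPM. The homozygous tumours ranged from 2.71 through a median of 4.99 to 15.7 CPM. The groups overlapped throughout: wild-type tumours 4 and 5 were low, homozygous tumour 6 was high, and the rest lay between 2.28 and 5.73 CPM. The log2 fold change of Lyve1 was 0.79 ± 0.49 for homozygous against wild-type tumours (edgeR, adjusted p = 0.420), 0.21 ± 0.52 for heterozygous against wild-type tumours and 0.58 ± 0.51 for homozygous against heterozygous tumours, with adjusted p-values of 0.999 and 1. Some macrophages also make Lyve1. The summed level of 10 macrophage markers, none of them at 0 in all tumours of a genotype, had its extremes in the same tumours as Lyve1. It was 131.8 CPM in homozygous tumour 6, the highest of the 17, and 51.6, 59.1 and 61.5 CPM in wild-type tumours 5 and 4 and heterozygous tumour 6, the 3 lowest, which were also the 3 lowest for Lyve1. Yet wild-type tumour 6, with 126.9 CPM of macrophage markers, came close to homozygous tumour 6 and had only 3.27 CPM of Lyve1. The part of macrophages in the Lyve1 values was not tested.

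Flt4 ranged in wild-type tumours from 0.292 CPM through a median of 1.31 to 2.0. The heterozygous values were 2.12, 2.15, 0.833, 1.34 and 0.970 CPM, and the homozygous ones ran from 1.13 through 1.90 to 6.07. Only homozygous tumours 4 and 6 were above every tumour of the other genotypes, and wild-type tumours 4 and 5 were below all others. For homozygous against wild-type tumours its log2 fold change was 1.0 ± 0.46 (edgeR, unadjusted p = 0.0456, adjusted p = 0.307). Without homozygous tumour 6 the estimate for Flt4 was 0.55.

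Mmrn1, a secreted multimerin that lymphatic endothelium and platelets make, had 0.164, 1.55 and 2.76 CPM in the lowest, median and highest wild-type tumour. In heterozygous tumours it had 3.33, 2.15, 0.556, 0.977 and 0.342 CPM. In homozygous tumours the lowest was 1.48, the median 2.23 and the highest 15.9 CPM. Homozygous tumour 6 was far above all others, while the other 5 homozygous tumours had at most the 3.33 CPM that heterozygous tumour 1 also had. Mmrn1 gave a log2 fold change of 1.69 ± 0.73 for homozygous against wild-type tumours (edgeR, unadjusted p = 0.0344, adjusted p = 0.293) and 0.09 ± 0.77 for heterozygous against wild-type tumours. Without homozygous tumour 6 the first estimate was 0.69. Platelet markers summed to 60.2 CPM in homozygous tumour 6, against 37.6 to 113 CPM in the 6 homozygous tumours, and their part in the Mmrn1 value of that tumour was not tested.

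Prox1 followed another pattern. It measured 63.8, 115 and 219 CPM in the lowest, median and highest wild-type tumour, and 133, 101, 179, 182 and 81.1 CPM in the heterozygous tumours. The homozygous tumours ran from 78.4 through 169 to 197 CPM. The 3 ranges overlapped nearly completely, and the highest value belonged to wild-type tumour 3, which was neither highest nor lowest for Lyve1, Flt4 or Mmrn1. The log2 fold changes were 0.25 ± 0.28 (homozygous against wild-type), 0.07 ± 0.29 (heterozygous against wild-type) and 0.19 ± 0.29 (homozygous against heterozygous), with adjusted p-values of 0.647 to 1 (edgeR). Of 8 enteroendocrine markers, none was at 0 in all tumours, and their sum ranged from 7.48 to 95.7 CPM in wild-type, 28.2 to 36.4 in heterozygous and 21.6 to 61.4 in homozygous tumours. Their part in the level of Prox1 was not tested.

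**Figure D2:**
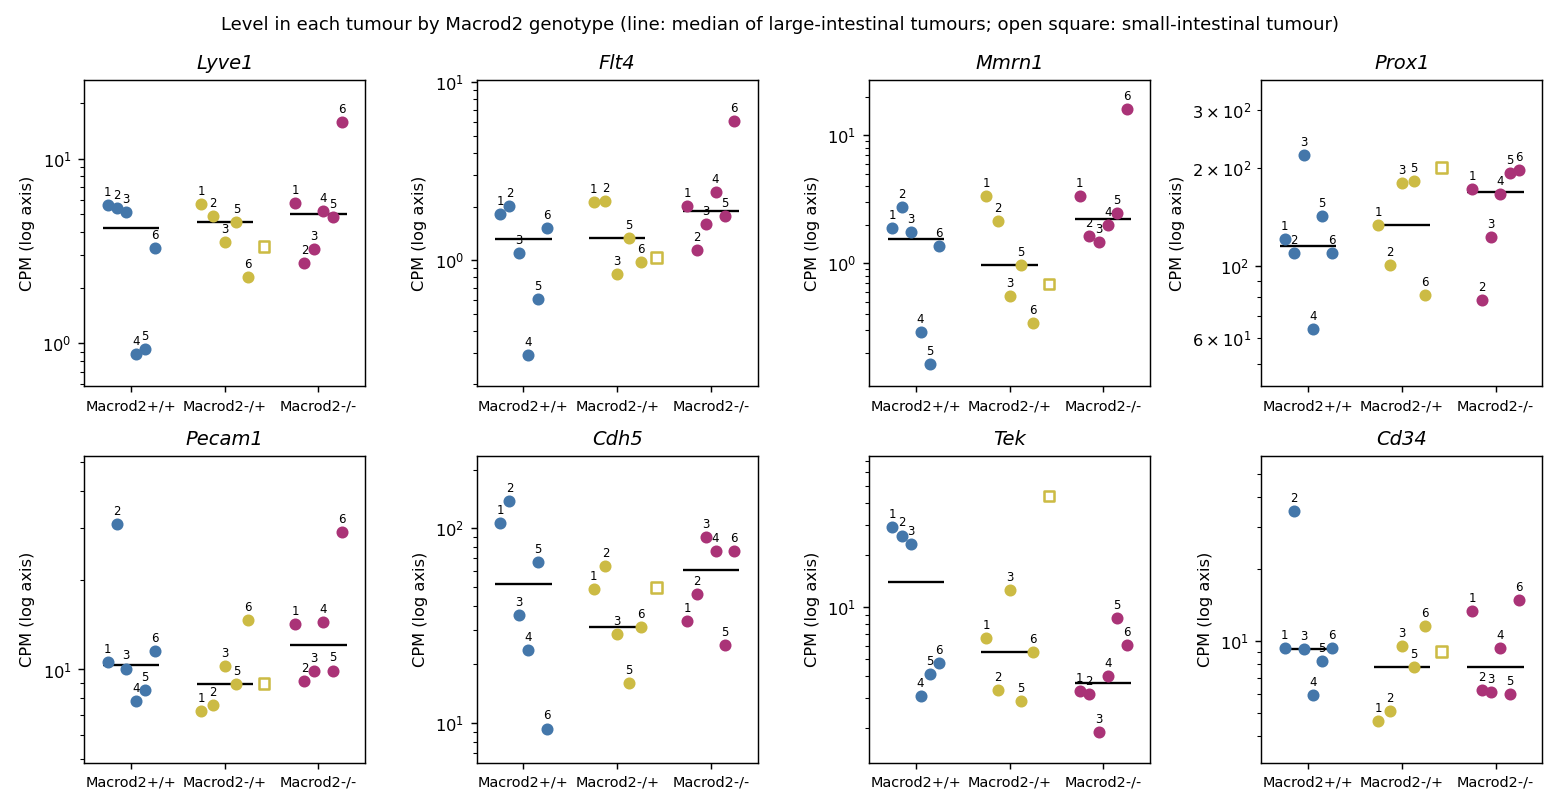
Level of the 4 lymphatic genes and of Pecam1, Cdh5, Tek and Cd34 in each tumour (CPM, log axes), by Macrod2 genotype. Points are large-intestinal tumours with their number, lines are medians, and the open square is the small-intestinal heterozygous tumour. Homozygous tumour 6 is highest for Lyve1 (15.7), Flt4 (6.07) and Mmrn1 (15.9), and Tek is at 23.3 to 29.0 in wild-type tumours 1 to 3.

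Among the surface and junction genes of blood vessels, no genotype separated from another. Pecam1 (chr11:106654217-106750628, minus strand, mm10) had 7.81, 10.3 and 30.9 CPM in the lowest, median and highest wild-type tumour, 7.26, 7.58, 10.3, 8.94 and 14.7 CPM in the heterozygous tumours, and 9.12, 12.1 and 29.1 CPM in the lowest, median and highest homozygous tumour. Wild-type tumour 2 and homozygous tumour 6 stood at about the same high level, so each genotype extreme came from 1 tumour. For Pecam1 the log2 fold change was 0.09 ± 0.36 for homozygous against wild-type tumours (edgeR, adjusted p = 0.913). Its 95% interval ran from -0.66 to 0.84.

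Cdh5 (chr8:104101625-104144511, plus strand) varied more widely, with 9.35, 51.6 and 138 CPM in the lowest, median and highest wild-type tumour. The heterozygous tumours had 48.5, 63.9, 28.6, 16.0 and 31.2 CPM, and the homozygous ones 25.2, 60.9 and 90.2 as lowest, median and highest. Wild-type tumours held both the highest and the lowest value of Cdh5. Its log2 fold change of -0.18 ± 0.53 (homozygous against wild-type) had an interval from -1.31 to 0.95. Cd34, a sialomucin of capillary endothelium that mast cells and blood progenitors also carry, was at 34.8 CPM in wild-type tumour 2 and at 4.64 to 14.9 CPM in the other 16. In that tumour a set of 10 mast cell markers, chosen after the data were seen, summed to 8052 CPM, against 40.6 to 1673 CPM in the other 16. None of the 10 was at 0 in all tumours of a genotype, and their part in the Cd34 and Pecam1 values of that tumour was not tested.

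The other surface genes differed widely in their spread. Esam, an adhesion molecule of tight junctions, ranged only from 7.11 to 13.9 CPM over the 17 tumours, with a log2 fold change of -0.09 ± 0.16 (homozygous against wild-type). Emcn, a mucin of venous and capillary endothelium, ranged from 1.86 to 6.63 CPM with an estimate of 0.06 ± 0.34, and Plvap from 9.80 to 43.1 CPM with 0.30 ± 0.31. The adhesion molecule Icam2 was at 0.278 to 1.58 CPM with -0.20 ± 0.39. Cldn5 ranged from 0.0546 to 2.09 CPM, and its 0.77 ± 0.55 had an interval from -0.40 to 1.93. Exons of Cd34, Egfl7, Eng, Nos3, Ramp2, Prox1 and Sox17 overlap those of other annotated genes, and no source used here gives the strand setting of the counting. Counts of these 7 genes are uncertain to that extent.

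Of the growth factor receptors, Kdr (VEGFR2), the main signalling receptor for VEGF-A on blood vessels, measured 2.63, 3.97 and 7.81 CPM as lowest, median and highest in wild-type tumours. It measured 2.77, 2.56, 2.06, 2.72 and 5.99 CPM in heterozygous tumours, and 2.60, 4.82 and 12.2 CPM in homozygous tumours. Heterozygous tumours were low except for tumour 6, and all 3 ranges overlapped. Kdr gave a log2 fold change of 0.92 ± 0.43 for homozygous against heterozygous tumours (edgeR, unadjusted p = 0.0459, adjusted p = 1). Flt1 (VEGFR1), which binds VEGF-A tightly and can act as a decoy, ranged from 6.99 to 34.8 CPM with estimates of 0.30 ± 0.32 and -0.21 ± 0.33 for homozygous and heterozygous against wild-type tumours.

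Tek (chr4:94739289-94874976, plus strand) gave the lowest estimates of the list against wild-type tumours. The wild-type tumours split: tumours 1, 2 and 3 had 29.0, 25.9 and 23.3 CPM, and tumours 4, 5 and 6 had 3.07, 4.10 and 4.73 CPM. Heterozygous tumours had 6.61, 3.33, 12.5, 2.88 and 5.48 CPM, and homozygous tumours 1.89, 3.65 and 8.71 CPM as lowest, median and highest. Wild-type tumours 4 to 6 lay within the range of the homozygous tumours. The log2 fold change was -1.77 ± 0.59 for homozygous against wild-type tumours (edgeR, unadjusted p = 0.00784, adjusted p = 0.258) and -1.32 ± 0.61 for heterozygous against wild-type tumours (unadjusted p = 0.0469, adjusted p = 0.999). Without wild-type tumours 1 and 2 the Tek estimates were -0.95 and -0.50. Gata4, a transcription factor of the proximal small intestine, was at 171 and 179 CPM in wild-type tumours 1 and 2, at 13.9 CPM in wild-type tumour 3. The remaining 14 tumours of the large intestine had 0.282 to 47.3 CPM of it. The small-intestinal heterozygous tumour had 166 CPM of Gata4 and 43.8 CPM of Tek. Whether the site of the tumour along the gut moves Tek was not tested.

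Tie1, the orphan partner of Tek, did not share that split. It measured 2.04, 3.56 and 7.81 CPM in the lowest, median and highest wild-type tumour and 3.37, 5.45 and 9.95 CPM in homozygous tumours, with a log2 fold change of 0.50 ± 0.31 (edgeR, adjusted p = 0.423). Ptprb (VE-PTP), the phosphatase that dampens Tek and Cdh5 signalling, measured 2.48, 4.71 and 7.70 CPM in wild-type tumours. In heterozygous tumours it measured 4.69, 4.97, 2.67, 3.96 and 5.19 CPM, and in homozygous tumours 4.47, 7.76 and 23.99 CPM. The homozygous tumours were above every heterozygous one except for tumour 2, at 4.47 CPM. The log2 fold change of Ptprb was 0.98 ± 0.38 for homozygous against wild-type (unadjusted p = 0.0187, adjusted p = 0.271) and 1.22 ± 0.40 for homozygous against heterozygous tumours (unadjusted p = 0.00699, adjusted p = 1; edgeR). Without homozygous tumour 6 the Ptprb estimates were 0.54 and 0.75.

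Among genes with other roles, Clec14a, a C-type lectin of tumour and developing vessels, had the smallest unadjusted p of the 31 genes. It measured 0.803, 1.10 and 1.80 CPM in wild-type tumours (10 to 32 counts), 2.67, 2.41, 0.778, 1.85 and 1.43 CPM in heterozygous tumours, and 1.57, 2.39 and 6.02 CPM in homozygous tumours. Of the homozygous tumours, 2 (tumours 2 and 5) lay within the wild-type range and 4 lay above it. The Clec14a log2 fold change for homozygous against wild-type tumours was 1.202 ± 0.36 (edgeR, unadjusted p = 0.00356, adjusted p = 0.258), and 0.85 without homozygous tumour 6.

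Vwf, the clotting factor stored in endothelial granules, measured 5.70, 8.11 and 13.5 CPM in wild-type tumours, 10.04, 11.1, 5.61, 6.37 and 7.13 CPM in heterozygous tumours and 8.25, 12.9 and 29.1 CPM in homozygous tumours. The ranges overlapped, with homozygous tumour 6 far above the next. Its log2 fold change was 0.83 ± 0.33 for homozygous against heterozygous tumours (edgeR, unadjusted p = 0.0209, adjusted p = 1). Robo4, a guidance receptor that steadies the vessel barrier, gave 0.65 ± 0.31 in the same comparison (unadjusted p = 0.0478). Without homozygous tumour 6, Vwf gave 0.49 and Robo4 0.43.

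The other 6 genes of this kind gave no unadjusted p under 0.05 in any comparison. Eng, a TGF-beta co-receptor, ranged from 5.91 to 24.1 CPM, with a log2 fold change of 0.35 ± 0.32 for homozygous against wild-type tumours. The apelin receptor Aplnr ranged from 1.0 to 5.45 CPM with 0.04 ± 0.35, and Ramp2, which makes the calcitonin receptor-like receptor respond to adrenomedullin, from 0.389 to 4.03 CPM with 0.28 ± 0.35. The extracellular matrix protein Mmrn2 ranged from 0.889 to 6.99 CPM with 0.26 ± 0.37. Nos3, the endothelial nitric oxide synthase, ranged from 0.755 to 3.06 CPM with 0.05 ± 0.37, and the secreted factor Egfl7 from 6.33 to 15.0 CPM with -0.19 ± 0.19.

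Of the transcription factors of the list, 1 reached an unadjusted p under 0.05. Sox7, of the SoxF group that directs vessel formation, measured 1.24, 1.45 and 2.93 CPM in wild-type tumours, 3.83, 4.56, 1.06, 1.39 and 2.17 CPM in heterozygous tumours and 2.23, 2.88 and 4.08 CPM in homozygous tumours. Only wild-type tumour 3 reached into the homozygous range, and the log2 fold change was 0.73 ± 0.34 (edgeR, unadjusted p = 0.0463, adjusted p = 0.308). Its relatives Sox17 (24.8 to 221 CPM) and Sox18 (1.56 to 6.07 CPM) had estimates of 0.27 ± 0.41 and -0.00 ± 0.30. Of the ETS factors, Ets1, which lymphocytes and other stromal cells also make, had the narrowest range of the list, 23.8 to 43.9 CPM, with an estimate of 0.10 ± 0.13, and Erg ranged from 0.292 to 3.16 CPM with 0.48 ± 0.47.

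Counted together, none of the 31 genes passed an adjusted p of 0.05 (edgeR quasi-likelihood test, Benjamini-Hochberg adjustment over 14271 genes) in any of the 3 comparisons, and none did with DESeq2 or limma-voom. Over all genes tested, 0.00701% passed for homozygous against wild-type tumours, 0% for heterozygous against wild-type tumours and 0.00701% for homozygous against heterozygous tumours. The 1 gene called in the first and last of these was Macrod2. No endothelial gene had groups that did not overlap, against 0.680%, 0.140% and 0.189% of all genes in the same order of comparisons.

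At an unadjusted p under 0.05, 6 of 31 (19.4%) were reached for homozygous against wild-type tumours (Clec14a, Flt4, Mmrn1, Ptprb and Sox7 with higher estimates, Tek with a lower one), beside 16.0% of all genes. That share was close to the background. For heterozygous against wild-type tumours it was 1 of 31 (3.23%, Tek), beside 2.85%. For homozygous against heterozygous tumours it was 4 of 31 (12.9%, Ptprb, Vwf, Kdr and Robo4, all higher), beside 2.0%. Without homozygous tumour 6 the counts were 2, 0 and 1, beside 10.1%, 2.55% and 1.02% of all genes. DESeq2 gave 7, 1 and 6 genes, beside 17%, 3.49% and 2.45%, and limma-voom 5, 0 and 3, beside 15.7%, 2.38% and 1.99%.

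The direction of the estimates leaned one way in the comparisons with homozygous tumours. Estimates were higher for 24 of 31 genes in homozygous than in wild-type tumours, beside 45.7% of all genes, and for 30 of 31 (all but Tek) in homozygous than in heterozygous tumours, beside 48.2%. In heterozygous against wild-type tumours only 8 of 31 were higher, beside 43.2%: the 4 lymphatic genes with Clec14a, Ets1, Sox17 and Sox7. The members vary together and the comparisons share tumours, so these counts are not 31 separate observations. Some marker lists of other cell types leaned the same way. In homozygous against wild-type tumours, estimates were higher for 9 of 10 fibroblast, 7 of 8 pericyte and 7 of 9 macrophage markers. They were higher for 3 of 8 smooth muscle, 2 of 7 lymphocyte and 0 of 10 mast cell markers. Against heterozygous tumours the counts were 9, 6, 7, 7, 4 and 0 in the same order.

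Set side by side, the lymphatic genes had the higher median estimate in each comparison with edgeR on all 17 tumours. For homozygous against wild-type tumours the median log2 fold change was 0.89 over the 4 lymphatic genes, 0.27 over the 27 blood vessel genes and -0.03 over all genes. For heterozygous against wild-type tumours the medians were 0.15, -0.27 and -0.03. For homozygous against heterozygous tumours they were 0.66, 0.51 and -0.01. Without homozygous tumour 6, the medians of lymphatic and blood vessel genes were 0.43 and 0.07 for homozygous against wild-type tumours, and 0.19 and 0.27 for homozygous against heterozygous tumours, so that the order turned in the last. It also turned there without heterozygous tumour 6 (0.51 and 0.58) and, by a small margin, with limma-voom (0.509 and 0.511). Without wild-type tumours 1 and 2 the first pair was 1.41 and 0.58, and the heterozygous against wild-type pair 0.74 and -0.01. In homozygous tumour 6 the summed level of 10 fibroblast markers was 944 CPM and that of 10 pericyte markers 96.8 CPM, the highest of the 17 tumours for both (385.6 to 716 and 36.8 to 88.4 CPM in the other 16), as for the macrophage markers. No marker of these lists was at 0 in all tumours, and their part in the endothelial values of that tumour was not tested.

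**Figure D3:**
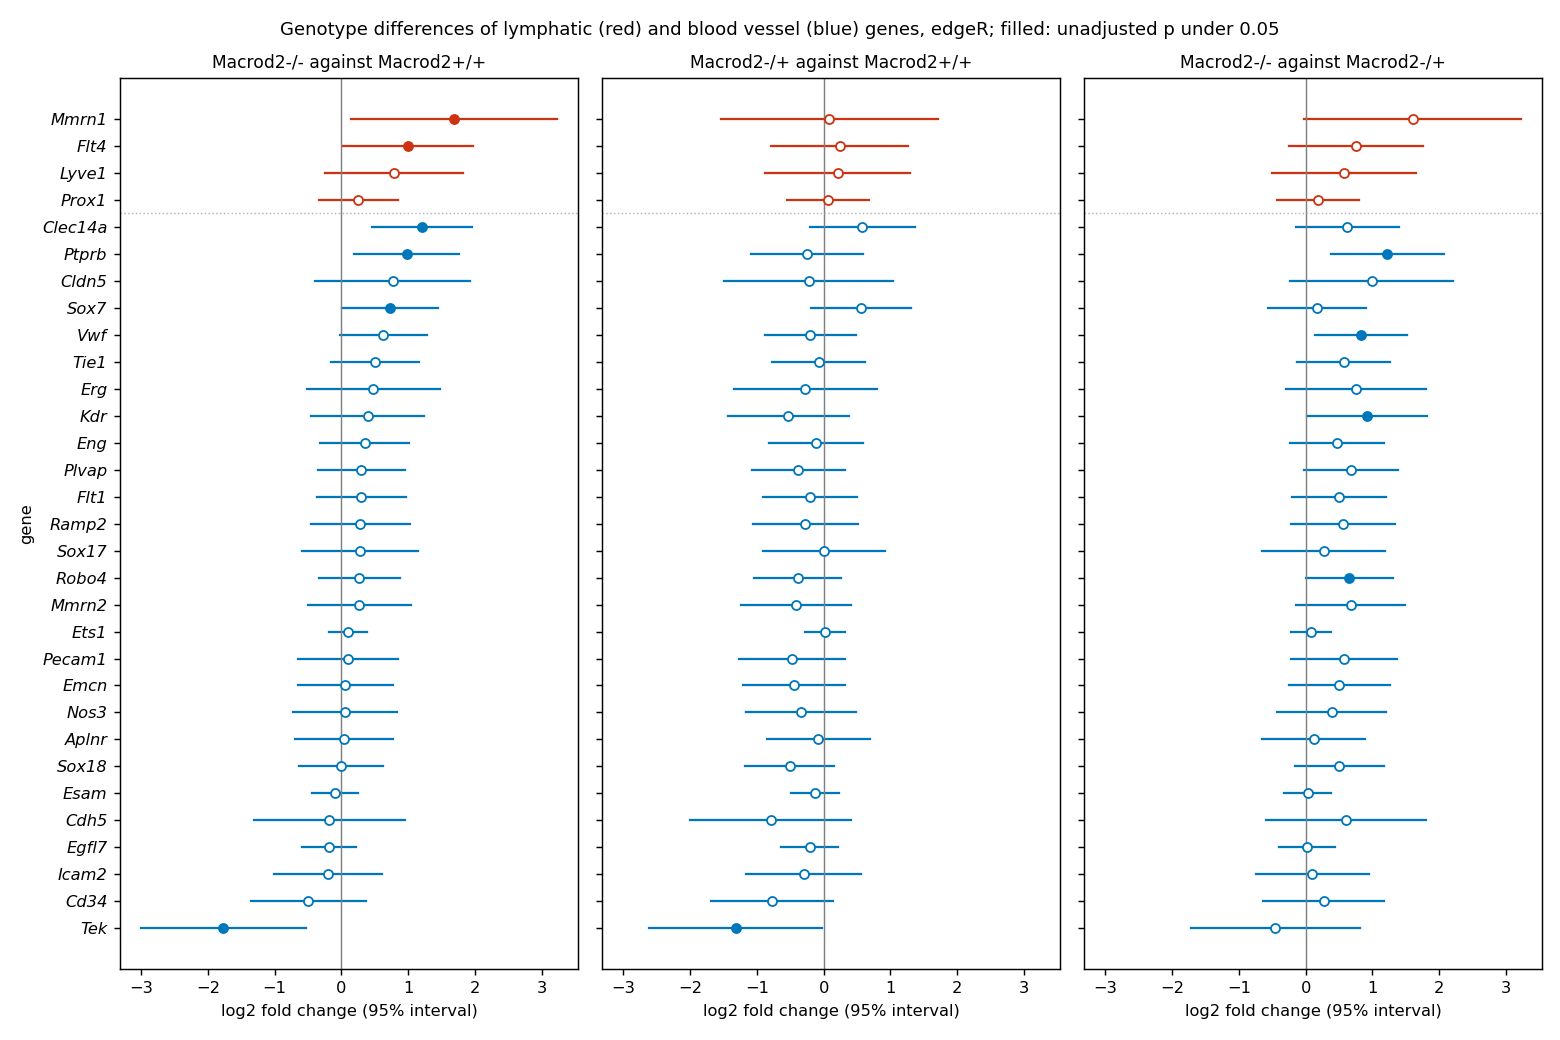
Log2 fold change with 95% interval of each endothelial gene in the 3 genotype comparisons (edgeR), lymphatic genes in red above the dotted line and blood vessel genes in blue; filled points have an unadjusted p under 0.05. Of the 31 genes, 24, 8 and 30 lie to the right of 0 from left to right, and no gene passed the adjusted threshold.

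To set the lymphatic genes against a gene of endothelium in general within each tumour, the log2 CPM of Pecam1 was subtracted from that of each. The Mmrn1 difference averaged -2.12 ± 0.69 (SD, n = 6) in homozygous and -3.43 ± 1.02 (SD, n = 6) in wild-type tumours, 1.31 apart (two-sided exact permutation p = 0.0195, adjusted p = 0.130 over 12 tests). The Flt4 difference averaged -2.56 ± 0.23 in homozygous and -3.36 ± 0.68 in wild-type tumours, 0.80 apart (exact permutation p = 0.0216, adjusted p = 0.130). For Lyve1 the same comparison gave 0.71 (exact permutation p = 0.126) and for Prox1 0.13 (exact permutation p = 0.777). None of the 12 tests passed the adjusted threshold, 2 had an unadjusted p under 0.05, and the smallest p the design allows is 0.00216. The Flt4 to Pecam1 difference spread less among homozygous tumours (SD 0.23) than among heterozygous ones (SD 0.94).

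Across the 17 tumours, 8 of the 26 other blood vessel genes passed a test of correlation with Pecam1. The remaining blood vessel genes and the 4 lymphatic genes did not. Pearson's r of log2 CPM with Pecam1 was 0.90 for Cd34, 0.86 for Emcn, 0.85 for Robo4, 0.84 for each of Plvap, Tie1 and Kdr, 0.83 for Eng and 0.80 for Erg (n = 17). These 8 of 30 genes passed (permutation test, adjusted p of 0.0408 to 0.0476 over all other genes), beside 0.0841% of all genes, which is 12 genes in all. Spearman's rho of the 8 ran from 0.67 for Eng (permutation p = 0.00394) to 0.92 for Cd34. The lymphatic genes gave r of 0.56 (Flt4), 0.52 (Lyve1), 0.51 (Mmrn1) and 0.18 (Prox1), with adjusted p-values from 0.204 to 0.699. The blood vessel genes that did not pass ran from -0.18 (Sox17) to 0.72 (Mmrn2), and the median of all 26 was 0.59. Leaving out the 2 tumours farthest from the Pecam1 median (wild-type tumour 2 and homozygous tumour 6) gave r of 0.84 for Cd34, 0.78 for Kdr and 0.66 for Erg, the lowest of the 8, but 0.27 for Flt4, 0.25 for Lyve1 and 0.08 for Mmrn1. The blood vessel genes that had not passed ranged from -0.37 (Sox17) to 0.63 (Ets1) in this setting. The number of genes past the threshold was 0 without wild-type tumour 2, without homozygous tumour 1 or without homozygous tumour 6, although Cd34 kept an r of 0.94 without the last of these. A single gene at 1e-05, the smallest p these permutations can give, does not pass an adjustment over 14270 genes. Centred on the genotype means, 9 genes passed, beside 0.974% of all genes, which is 139 genes.

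Upstream sequences are shown for 4 of the genes that varied with Pecam1 (Kdr, Emcn, Cd34 and Eng) and for Prox1, a lymphatic gene that did not pass with it, to let their base composition and ETS-type letters be compared. They are the bases before the transcription start in RefSeq (build GRCm38.p6), less any base of an exon in GENCODE vM21, written 5′ to 3′ on the strand of the gene. Capitals mark CAGGAA or its reverse complement TTCCTG, the kind of letters that ETS factors such as Erg and Ets1 can bind. Kdr is at chr5:75978459-75978705 (minus strand), Emcn at chr3:137340828-137341066 (plus), Cd34 at chr1:194938571-194938818 (plus), Eng at chr2:32646345-32646594 (plus) and Prox1 at chr1:190170828-190171077 (minus).
Kdr: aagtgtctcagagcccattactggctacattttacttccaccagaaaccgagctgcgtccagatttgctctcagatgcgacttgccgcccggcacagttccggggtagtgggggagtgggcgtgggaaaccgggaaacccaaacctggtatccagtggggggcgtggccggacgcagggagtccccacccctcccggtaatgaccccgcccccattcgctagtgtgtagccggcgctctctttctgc
Emcn: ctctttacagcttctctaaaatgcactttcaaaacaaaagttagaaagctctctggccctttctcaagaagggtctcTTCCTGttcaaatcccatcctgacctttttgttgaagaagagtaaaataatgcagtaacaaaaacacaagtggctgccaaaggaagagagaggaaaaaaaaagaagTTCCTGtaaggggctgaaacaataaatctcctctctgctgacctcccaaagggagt
Cd34: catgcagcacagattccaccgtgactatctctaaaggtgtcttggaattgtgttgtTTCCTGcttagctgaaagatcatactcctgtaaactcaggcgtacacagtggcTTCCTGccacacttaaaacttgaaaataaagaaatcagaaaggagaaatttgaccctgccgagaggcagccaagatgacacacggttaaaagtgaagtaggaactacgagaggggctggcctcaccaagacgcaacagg
Eng: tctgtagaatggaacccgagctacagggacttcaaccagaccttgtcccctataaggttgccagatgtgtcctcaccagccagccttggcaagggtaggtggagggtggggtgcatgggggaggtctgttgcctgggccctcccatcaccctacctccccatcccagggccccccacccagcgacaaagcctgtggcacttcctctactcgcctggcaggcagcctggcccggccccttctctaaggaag
Prox1: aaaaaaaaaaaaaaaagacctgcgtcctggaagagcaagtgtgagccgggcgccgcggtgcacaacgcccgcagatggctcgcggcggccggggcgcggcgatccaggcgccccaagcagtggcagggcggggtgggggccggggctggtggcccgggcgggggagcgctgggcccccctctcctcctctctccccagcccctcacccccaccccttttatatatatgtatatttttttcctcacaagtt
Emcn and Cd34 hold 2 matches each to CAGGAA or TTCCTG, and Kdr, Eng and Prox1 hold none. Other ETS-type letters are not marked. Eng, Emcn and Cd34 also hold AGGAAG or CTTCCT, and Kdr holds TTCCGG. Each sequence shown, that of Prox1 included, holds the shorter GGAA or TTCC that lie within the marked letters. Of the 31 genes, 15 had an entry in the RefSeq table. Within the 250 bases before the start as the table gives them, 8 of these 15 (53.3%) held CAGGAA or TTCCTG, against 25.7% of all 32851 windows. The 8 include Mmrn1, whose window lies inside the gene as GENCODE gives it. For the overlapping letters AGGAAG or CTTCCT, the counts were 7 of 15 (46.7%) and 29.5%. A match is only a match of letters.

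Lyve1, Flt4 and Mmrn1 varied together, though not apart from all blood vessel genes. With Lyve1 (chr7:110850607-110863239 in mm10, minus strand), r was 0.92 for Flt4 (chr11:49609263-49652739, plus strand) and 0.91 for Mmrn1 (chr6:60924976-60989378, plus strand), ranks 3 and 8 among 14270 genes, each with an adjusted p of 3.87e-04 (permutation test, n = 17). Spearman's rho was 0.83 and 0.90. Without wild-type tumours 4 and 5, the 2 farthest from the Lyve1 median, r was 0.87 and 0.89, and without homozygous tumour 6 it was 0.88 for both genes. Flt4 and Mmrn1 gave an r of 0.92 with each other. Both were also close to blood vessel genes: Flt4 gave 0.88 with Ptprb and 0.85 with Vwf, and Mmrn1 gave 0.86 with Vwf and 0.84 with Ptprb. The genes closest to Lyve1, Tenc1 (0.94) and Dtx1 (0.93), were outside the list, and 18.6% of all genes passed with Lyve1.

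Prox1 (chr1:190118035-190170714, minus strand) was less tied to them. Its r with Lyve1 was 0.58 (adjusted p of 0.0383 among the correlations with Lyve1), with rank 2442 of 14270. With Prox1 as the reference, Lyve1 alone of the 30 other endothelial genes passed, beside 13.7% of all genes, and its r was 0.37 without the 2 tumours farthest from the Prox1 median. Flt4 gave an r of 0.45 with Prox1 (permutation p = 0.0688) and Mmrn1 0.41 (permutation p = 0.0990). Egfl7 gave the lowest r with Prox1, -0.56.

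Of the blood vessel genes, 7 passed with Lyve1. In all, 10 of 30 endothelial genes passed with Lyve1, beside 18.6% of all genes: Flt4, Mmrn1 and Prox1, with Ptprb (r = 0.78), Vwf (0.76), Tie1 (0.75), Erg (0.74), Cldn5 (0.69), Eng (0.68) and Clec14a (0.58). The adjusted p of these 7 blood vessel genes ran from 0.00238 for Ptprb to 0.0418 for Clec14a (permutation test, n = 17). Leaving out wild-type tumours 4 and 5 gave r of 0.74 for Ptprb, 0.77 for Vwf and 0.56 for Tie1 and Clec14a. The r of Clec14a was 0.36 without homozygous tumour 6. Pecam1 (0.52) and Kdr (0.48) did not pass. Ptprb, Vwf, Cldn5 and Clec14a passed with Lyve1 and not with Pecam1, with which their r was 0.71, 0.64, 0.53 and 0.30. The r needed to pass was lower with Lyve1, where 18.6% of all genes passed, than with Pecam1, where 0.0841% did: the 0.58 of Clec14a passed with Lyve1, and the 0.71 of Ptprb did not with Pecam1. The difference between these correlations was not tested.

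Cdh5 passed neither with Pecam1 nor with Lyve1. Its r with Pecam1 was 0.37 (adjusted p = 0.387), and -0.07 without the 2 farthest tumours. With Cdh5 as the reference, 1 of 30 genes passed, Sox17 (r = 0.76, rho = 0.66, adjusted p = 0.0393), beside 0.631% of all genes, and it kept an r of 0.78 without the 2 tumours farthest from the Cdh5 median. Flt1 gave the next r among endothelial genes, 0.73 (adjusted p = 0.0529). Sox17 ranked only 72 of 14270 genes, and none of the 20 genes closest to Cdh5 was in the list. They included Sprr2f, of a family of squamous epithelial envelope proteins (r = 0.94), the gastric mucin gene Muc5ac (0.89) and Gata4 (0.87), with adjusted p of 0.00951 for each (permutation test, n = 17), named after their values were seen. How far the part of the gut or the epithelium of a tumour moves with its Cdh5 level was not tested further. The closest pairs in the list were Vwf with Ptprb (r = 0.93) and Tie1 with Eng (0.93). The median r of a gene with the other 30 was highest for Vwf and Eng (0.66 each) and lowest for Sox17 (-0.01), Prox1 (0.11) and Egfl7 (0.12).

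**Figure D4:**
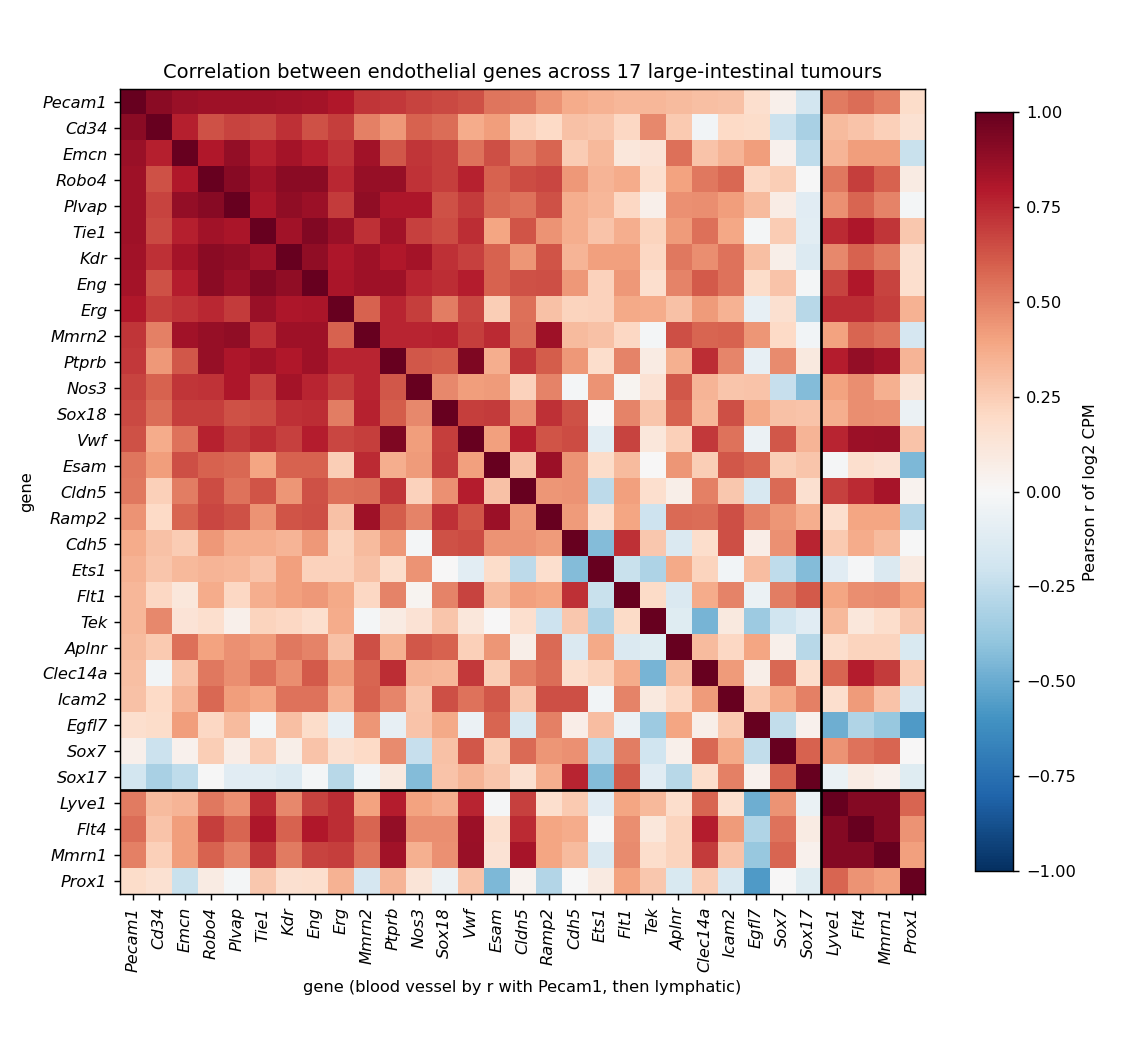
Pearson's r of log2 CPM between all pairs of the 31 endothelial genes across 17 large-intestinal tumours, blood vessel genes first in the order of their r with Pecam1 and the 4 lymphatic genes last (black lines). The upper left block holds the genes that varied with Pecam1, the lower right block shows Lyve1, Flt4 and Mmrn1 together (r of 0.91 to 0.92), and the rows of Sox17, Egfl7 and Prox1 are pale.

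**Figure D5:**
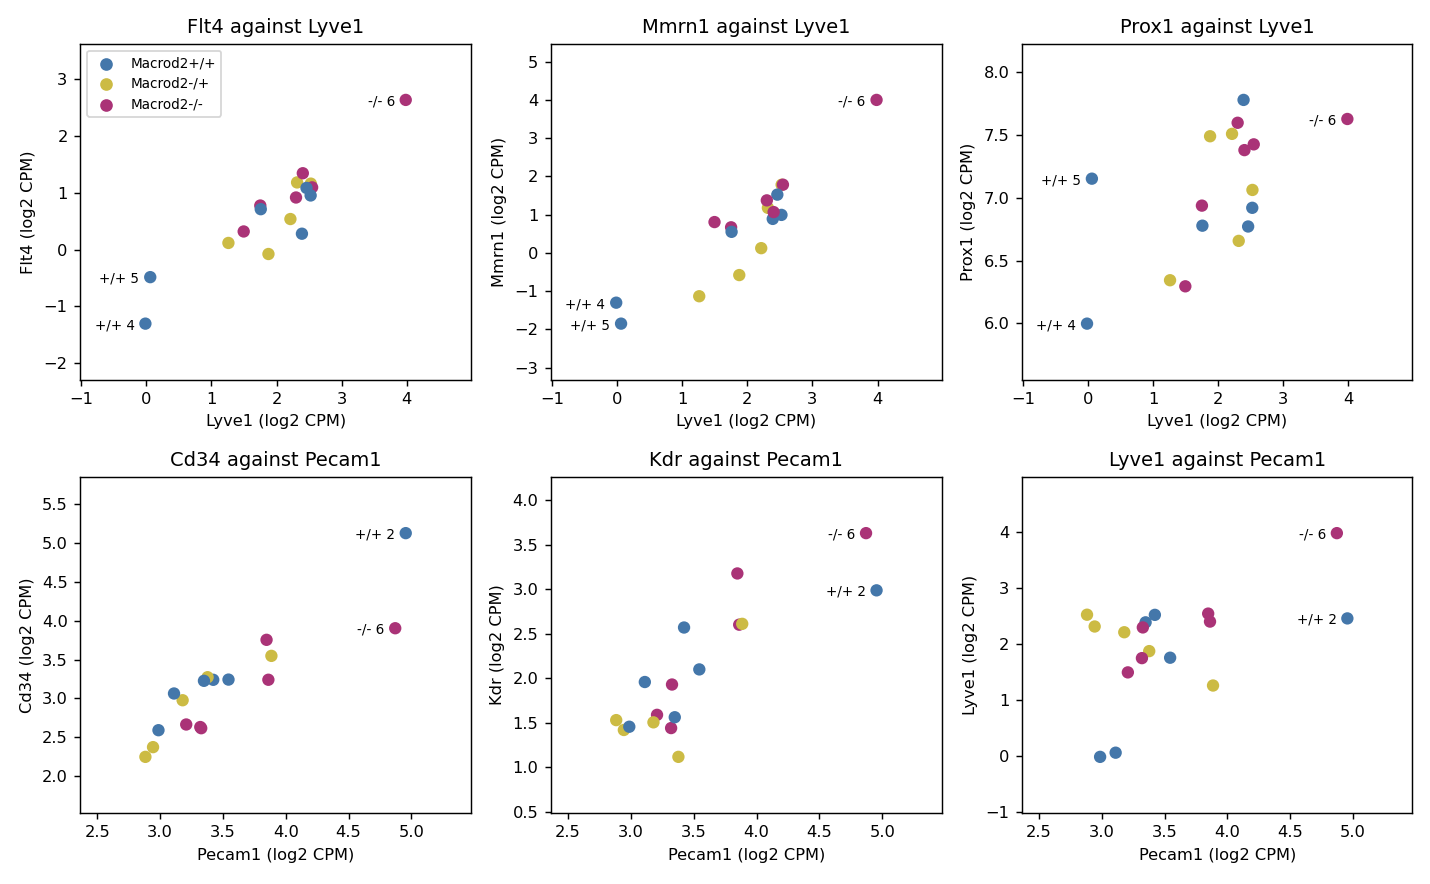
Log2 CPM of Flt4, Mmrn1 and Prox1 against Lyve1 (top) and of Cd34, Kdr and Lyve1 against Pecam1 (bottom), with each point a large-intestinal tumour coloured by Macrod2 genotype. Flt4 and Mmrn1 follow Lyve1 through all tumours (r = 0.92 and 0.91), whereas Lyve1 follows Pecam1 less closely (r = 0.52).

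By tumour, homozygous tumour 6 had the highest value of 18 of the 31 genes and the lowest of none. Heterozygous tumour 3 had the lowest value of 10 genes, wild-type tumour 4 the lowest of 7 and wild-type tumour 2 the highest of 5. Blood and lymphatic genes did not always move together. In heterozygous tumour 6, Kdr (5.99 CPM), Emcn (4.17) and Robo4 (2.97) were the highest of the 5 heterozygous tumours, while Lyve1 (2.28) and Mmrn1 (0.342) were the lowest. In wild-type tumour 5, Lyve1 was at 0.929 CPM while Cdh5 was at 67.3 and Flt1 at 27.6 CPM. Other blood vessel genes were low there too: Emcn (1.86 CPM) and Cldn5 (0.0546) were at their lowest of all large-intestinal tumours. Relative to each gene's mean log2 CPM over these tumours, the blood vessel genes had a median of -0.35 in wild-type tumour 5. Lyve1, Flt4 and Mmrn1 averaged -1.88 there. In heterozygous tumour 6 the 2 values were 0.35 and -1.04.

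No ligand or partner receptor around these genes passed the adjusted threshold either. Of 32 ligands, co-receptors and other vascular genes chosen as a list, 27 passed the filter on low counts and 0 were called in any comparison (edgeR). At an unadjusted p under 0.05, 3 of 27 were higher and 0 lower for homozygous against wild-type tumours, beside 16.0% of all genes. For heterozygous against wild-type tumours it was 0 of 27, beside 2.85%. For homozygous against heterozygous tumours 2 of 27 were reached, both higher, beside 2.0%. Calcrl, the receptor that Ramp2 partners, gave 0.97 ± 0.43 (unadjusted p = 0.0397) and 1.33 ± 0.46 (unadjusted p = 0.0105) in the 2 comparisons. Gpr116, an adhesion G protein-coupled receptor of endothelium, gave 0.62 ± 0.25 for homozygous against wild-type tumours, and its relative Eltd1 0.91 ± 0.39 for homozygous against heterozygous tumours. Among lower estimates, Tal1, a transcription factor of blood and endothelial precursors, gave -1.30 ± 0.66 and Vegfb -0.30 ± 0.20 for homozygous against wild-type tumours. Figf, which encodes the Flt4 ligand VEGF-D, gave -0.86 ± 0.57 for heterozygous against wild-type tumours. The median estimates of the list were 0.16, -0.07 and 0.29 in the 3 comparisons.

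Of 8 other lymphatic genes, 6 passed the filter, of which 3 had higher and 3 lower estimates for homozygous against wild-type tumours, and none reached an unadjusted p under 0.05 in any comparison. Reln, a secreted glycoprotein that lymphatic endothelium makes, gave the highest estimate in that comparison, 1.22 ± 0.71 (edgeR, unadjusted p = 0.106), followed by the T-box transcription factor Tbx1 with 0.85 ± 0.54. Foxc2, a transcription factor of lymphatic valves, gave -0.18 ± 0.34 and the integrin subunit Itga9 -0.16 ± 0.25. The lymphatic chemokine Ccl21a was listed at 0 in every library. The median over these 6 genes was 0.10, 0.07 and 0.09 in the 3 comparisons, against 0.89, 0.15 and 0.66 for Lyve1, Prox1, Flt4 and Mmrn1.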

How the data were processed

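The authors deposited raw read counts per gene and RPKM values for 18 libraries. Per the labels' protocols, RNA was extracted from resected tumours (AllPrep) and sequenced as TruSeq Stranded Total RNA libraries, although the labels' molecule entry is polyA RNA. The submitters' processing notes name mm10, Trimmomatic, TopHat and, from Subread 1.4.5-p1, featureCounts, without their options. The authors' RPKM proved to be the counts per gene length and library total, multiplied by 1 factor for each library.

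Tumours were grouped by labelled genotype and site. They were treated as separate animals because the titles give each mouse a number. No 2 libraries agreed within sampling noise (lowest chi-square per degree of freedom 20.3). That shows no repeat of a library, but it cannot show that the mice were separate. All 31 genes passed edgeR's filterByExpr. Counts of 14271 genes in 17 tumours were fitted with edgeR 4.0.16 in R 4.3.3 (TMM factors, robust quasi-likelihood) and adjusted by the Benjamini-Hochberg method, with a threshold of 0.05. No batch is named in the labels. Log2 CPM used a prior count of 2. Correlations used 100000 permutations of the tumours, adjusted over all 14270 other genes, although the plan had named the other members. The lymphatic differences from Pecam1 used exact permutation tests. Alternatives were DESeq2 1.42.0, limma-voom (limma 3.58.1), RLE factors, no filter, other samples, a replicate block and other pseudocounts. The edgeR and correlation steps were tested on simulated data.

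The members and lists were chosen with earlier results of these data known. In full are given the lymphatic genes, the main receptors and junction genes, and members with an unadjusted p under 0.05, and from each vascular list up to 2 genes per direction. Positions are from GENCODE vM21. The marker lists of other cell types held no gene past the adjusted threshold. T and B lymphocyte markers summed to 9.06 to 24.2 CPM, smooth muscle markers to 65.1 to 299.9 CPM and macrophage markers to 51.6 to 131.8 CPM in the 17 tumours.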

Additional observations from a re-analysis of the deposited data

Results flagged for a closer look

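Within a genotype, single tumours stood apart from the others for 18 of 93 sets of values, judged by the gap of the highest or lowest tumour to its neighbour relative to the range. The limits used would flag about 1 in 20 separate sets of normally distributed values. These sets share tumours and the genes vary together, so the count is not read against chance. Homozygous tumour 6 accounts for 11 of the 18, each time as the highest: Lyve1 at 15.7 CPM, Flt4 at 6.07, Mmrn1 at 15.9, Pecam1 at 29.1, Vwf at 29.1, Ptprb at 23.99, Cldn5 at 2.09, Mmrn2 at 6.99, Clec14a at 6.02, Icam2 at 1.33 and Ramp2 at 4.03 CPM.

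Wild-type tumour 2 stood apart for Pecam1 (30.9 CPM), Emcn (6.63) and Cd34 (34.8). Heterozygous tumour 6 stood apart for Kdr (5.99 CPM), Emcn (4.17), Robo4 (2.97) and Egfl7 (13.4). In the small-intestinal heterozygous tumour, which no main comparison used, Tek was at 43.8 CPM, above all 17 large-intestinal tumours.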

How the results depend on the processing

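No endothelial gene passed the adjusted threshold under any alternative, and of 2418 estimates of single genes none passed, while 102 estimates (31 of 93 gene and comparison pairs) turned sign without having been called. The smallest adjusted p was 0.0991 (Clec14a, homozygous against wild-type, DESeq2). Called genes in the whole table for that comparison numbered 22 with DESeq2 and 1 with edgeR. The number of genes correlated with Pecam1 was 8, but 1 (Sox17) with Cdh5 in place of Pecam1, 0 without wild-type tumours 1 and 2, and 0 to 8 when each tumour was left out in turn; the cause was not tested. The 12 differences from Pecam1 gave 0 calls under each alternative run. With each tumour left out, the median log2 fold change of lymphatic genes ranged from 0.43 to 1.09 (homozygous against wild-type), 0.00 to 0.42 (heterozygous against wild-type) and 0.19 to 0.80 (homozygous against heterozygous), and that of blood vessel genes from 0.07 to 0.41, -0.34 to -0.09 and 0.27 to 0.62. With the replicate block, the lymphatic medians were 0.98, 0.13 and 0.72, the blood vessel medians 0.23, -0.30 and 0.55, and 0 genes were called. The values gave little sign of pairing by number. Of 16 same-numbered pairs, 4 had a correlation over 0.1 (range -0.45 to 0.32), and 1 of 17 tumours correlated best with its own number. Whether same-numbered tumours shared a litter or a batch cannot be told from these correlations. Low counts limit Flt4, Mmrn1, Cldn5 and Erg, whose lowest libraries held 1 to 4 counts.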

Other observations

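In the small-intestinal heterozygous tumour, 27 of the 31 genes lay within the range of the 5 large-intestinal heterozygous tumours. Prox1 (200.2 CPM) and Tek (43.8 CPM) lay above it, and Flt1 (9.83 CPM) and Egfl7 (8.33 CPM) below it. Lyve1 was at 3.33, Flt4 at 1.03 and Mmrn1 at 0.690 CPM. With 1 tumour there is no replicate check.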
